A study of Mus musculus with 18 samples.

Results

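The cytokines of the interleukin-1 (IL-1) family were followed through the histone marks on their genes in bone marrow-derived macrophages (BMDM). The 9 genes, Il1a, Il1b, Il36a, Il36b, Il36g, Il33, Il18, Il1rn and Il1f10, were taken by name from the 21938 protein-coding nuclear genes of GENCODE vM21 on the mm10 mouse genome, which holds 55413 nuclear genes in all. In that annotation Il36a, Il36b and Il36g still carry their older symbols Il1f6, Il1f8 and Il1f9. A peak was assigned to a gene when it shared at least 1 bp with a window that began 5 kb before the body and closed 1 kb beyond it.

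The macrophages were grown from bone marrow of male mice in L929-conditioned medium as a source of M-CSF, and received no further stimulus. The 3 genotypes were WT (labelled C57BL6), mdx and mdxTLR4-/- (labelled Bl6/Bl10). The mdx line carries the Dmdmdx-4Cv allele and lacks dystrophin, the protein missing in Duchenne muscular dystrophy. The mdxTLR4-/- mice are described as mdx mice that also lack the lipopolysaccharide receptor TLR4. Their labelled strain was unlike that of WT, whereas the paper's methods put the WT, mdx and TLR4-/- lines on the same C57BL6 background. By the labels, strain cannot be told apart from the loss of TLR4. H3K27me3 was profiled in 2 ChIP and 2 input libraries per genotype. H3K27ac was profiled in 2 WT, 2 mdx and 1 mdxTLR4-/- ChIP libraries with 1 input library, whose title names no genotype. The labelled age rose by 1 week from library to library. It ran over 6 to 11 weeks across the H3K27me3 input libraries and 12 to 17 weeks across the H3K27me3 ChIP libraries. The H3K27ac input was labelled 18 weeks and the H3K27ac ChIP libraries 19 to 23 weeks. Each H3K27me3 input was thus labelled younger than the ChIP libraries of its genotype, and whether these are true ages cannot be checked here. Taken as labelled, age cannot be told apart from genotype or mark. The study asked whether dystrophic muscle disease leaves a TLR4-dependent record on the chromatin of macrophage precursors.

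The libraries of a genotype were merged before peaks were called, so each mark had 1 peak list per genotype. No replicate spread can be had from such lists, no difference below was tested, and the intervals given (95%, exact) cover counting error only. The H3K27me3 lists held 28143 peaks (WT), 41780 (mdx) and 36488 (mdxTLR4-/-), with 7358418 to 10199918 ChIP reads in peaks. The H3K27ac lists were sparser, with 12076 to 15665 peaks and 168487 to 274020 reads in peaks. The lowest peak of each H3K27ac list held 5 reads, and the median peak held 10 in WT and mdx and 8 in mdxTLR4-/-. All 7 macrophage markers examined, among them Csf1r and Spi1, had an H3K27ac peak and no H3K27me3 peak in each list. The start itself lay under H3K27ac at 6 of the 7 in WT and at 5 in mdx and in mdxTLR4-/-. Spi1 had its start covered in each list and Csf1r in none. Of the 15 markers of T cells, B cells, neutrophils, dendritic cells and fibroblasts, 12 had an H3K27me3 peak in WT and mdx and 11 in mdxTLR4-/-, and 3, 3 and 5 had an H3K27ac peak in WT, mdx and mdxTLR4-/-, none of them over a start.

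H3K27me3 is laid down by Polycomb repressive complex 2 and is associated with genes held silent, while H3K27ac is laid down by p300/CBP acetyltransferases and marks active promoters and enhancers. Cytokines of the IL-1 family act through paired receptor chains and the adaptor MyD88, the adaptor that most Toll-like receptors also use. IL-1α, IL-1β, IL-18, IL-33 and the IL-36 cytokines are agonists. The IL-1 receptor antagonist, made from Il1rn, blocks the IL-1 receptor, and IL-38, made from Il1f10, is described as an antagonist-like member. In macrophages, Il1a and Il1b are low at rest and are induced by Toll-like receptor ligands, and pro-IL-18 is made without a stimulus. IL-36 cytokines are chiefly products of epithelia, and IL-33 is a nuclear alarmin of barrier and stromal cells. Most of the family lies on mouse chromosome 2, with Il18 on chromosome 9 and Il33 on chromosome 19.

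The promoter sequences of the genes with a peak over a start site in at least 1 genotype are shown first. The Il1f10 stretch and the upstream Il33 stretch lay wholly under H3K27me3 in all 3 genotypes, and the Il18 stretch wholly under H3K27ac in WT and mdxTLR4-/-. The Il1b stretch had 61 of its 250 bases under H3K27me3 in WT and 0 in mdx and mdxTLR4-/-, and the downstream Il33 stretch, shown for comparison, had 0 under either mark. RefSeq promoters on GRCm38.p6, the build that mm10 names, matched 8 of the 9 genes, all but Il36a, and the 250 bases before the start are printed from 5′ to 3′ on the strand of the gene. Capitals mark matches, on either strand, to 5 motifs: the TATA box (TATAAA), AP-1 (TGANTCA), PU.1 (GAGGAA), C/EBP (TTGCNNAA) and the NF-kappaB consensus.
Il1b, chr2:129371140-129371389, minus strand: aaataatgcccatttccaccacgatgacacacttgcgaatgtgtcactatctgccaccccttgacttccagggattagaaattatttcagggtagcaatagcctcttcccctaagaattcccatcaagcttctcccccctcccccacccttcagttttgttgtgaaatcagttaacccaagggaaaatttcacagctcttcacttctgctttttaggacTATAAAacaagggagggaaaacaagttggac
Il1f10, chr2:24290946-24291195, plus strand: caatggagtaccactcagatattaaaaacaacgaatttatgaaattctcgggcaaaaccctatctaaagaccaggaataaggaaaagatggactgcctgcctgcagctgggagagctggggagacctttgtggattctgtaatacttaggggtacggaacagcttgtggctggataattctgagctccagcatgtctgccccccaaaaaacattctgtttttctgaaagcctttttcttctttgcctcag
Il33, upstream start, chr19:29924863-29925112, plus strand: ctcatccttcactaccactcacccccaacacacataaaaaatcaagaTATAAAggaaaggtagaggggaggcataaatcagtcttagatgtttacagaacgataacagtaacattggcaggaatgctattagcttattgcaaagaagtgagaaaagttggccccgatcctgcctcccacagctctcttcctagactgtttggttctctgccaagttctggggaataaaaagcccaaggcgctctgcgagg
Il33, downstream start, chr19:29945540-29945789, plus strand: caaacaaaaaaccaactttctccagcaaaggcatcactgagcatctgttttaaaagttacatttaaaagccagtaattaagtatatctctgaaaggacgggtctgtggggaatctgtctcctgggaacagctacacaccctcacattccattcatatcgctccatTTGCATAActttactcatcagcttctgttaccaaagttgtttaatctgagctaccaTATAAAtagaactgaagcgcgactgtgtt
Il18, chr9:50554450-50554699, plus strand: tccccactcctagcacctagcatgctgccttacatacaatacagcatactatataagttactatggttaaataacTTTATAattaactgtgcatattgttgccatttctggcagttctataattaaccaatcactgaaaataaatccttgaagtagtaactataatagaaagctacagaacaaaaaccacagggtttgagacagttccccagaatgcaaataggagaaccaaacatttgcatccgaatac

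In Il1b the TATAAA match lay 31 to 26 bases before the start, and at the downstream start of Il33 it lay 29 to 24 bases before it. At the upstream start of Il33 the match lay 203 to 198 bases away and in Il18, on the other strand, 175 to 170 bases away. The downstream Il33 stretch also held a C/EBP match, 85 to 78 bases before the start, and the Il1f10 stretch held no match to any of the 5 motifs. Among all 32851 promoter stretches of this length, 12.4% held TATAAA and 7.25% an NF-kappaB match. AP-1 matches were in 6.75% of all stretches, PU.1 matches in 23.3% and C/EBP matches in 9.56%. Cytosine-guanine dinucleotides (CpG), which are dense in the promoters that Polycomb commonly occupies, were few: 1 to 4 per stretch nearest the gene start in the 8 matched genes, against a median of 6 over all stretches. These matches describe letters only and were tied to no factor.

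In brief, the marks split the family into 4 kinds of gene. Il33 and Il1f10 carried broad H3K27me3 in every genotype, and Il1b carried a weaker H3K27me3 peak in every genotype. Il1a and Il36a had an H3K27me3 peak in a single genotype. Il18 had H3K27ac, and Il1rn, Il36b and Il36g had no peak of either mark in any of the 6 lists. Of the protein-coding genes, 23.8% also had neither mark in any list.

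An H3K27me3 peak was present at 3 of the 9 genes in WT, against 38.4% of protein-coding genes. It was present at 4 of 9 in mdx, against 41.3%, and at 4 of 9 in mdxTLR4-/-, against 39%. An H3K27ac peak was present at 1 of 9 genes in WT (39.9% of protein-coding genes), 0 of 9 in mdx (34.5%) and 1 of 9 in mdxTLR4-/- (36.5%). H3K27me3 was therefore about as frequent here as among all genes, and H3K27ac was less frequent in each list, without a test. The start itself lay under H3K27me3 at 3 genes in WT (Il1b, Il1f10 and Il33) and at 2 in mdx and in mdxTLR4-/- (Il1f10 and Il33), beside 23.5%, 23.8% and 22.7% of protein-coding genes. No H3K27me3 peak overlapped an H3K27ac peak at any of the 9 genes, which follows from the counts. Il18, the only gene with H3K27ac, had no H3K27me3 peak in any list. When only peaks with a read density of at least 1.5 times the 1st percentile of their list were kept, H3K27me3 remained at 1, 2 and 2 genes, with Il33 in all 3 lists and Il1f10 in mdx and mdxTLR4-/-. The share of all protein-coding genes under that threshold was not computed, so this loss cannot be set against that of other genes.

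**Figure D1:**
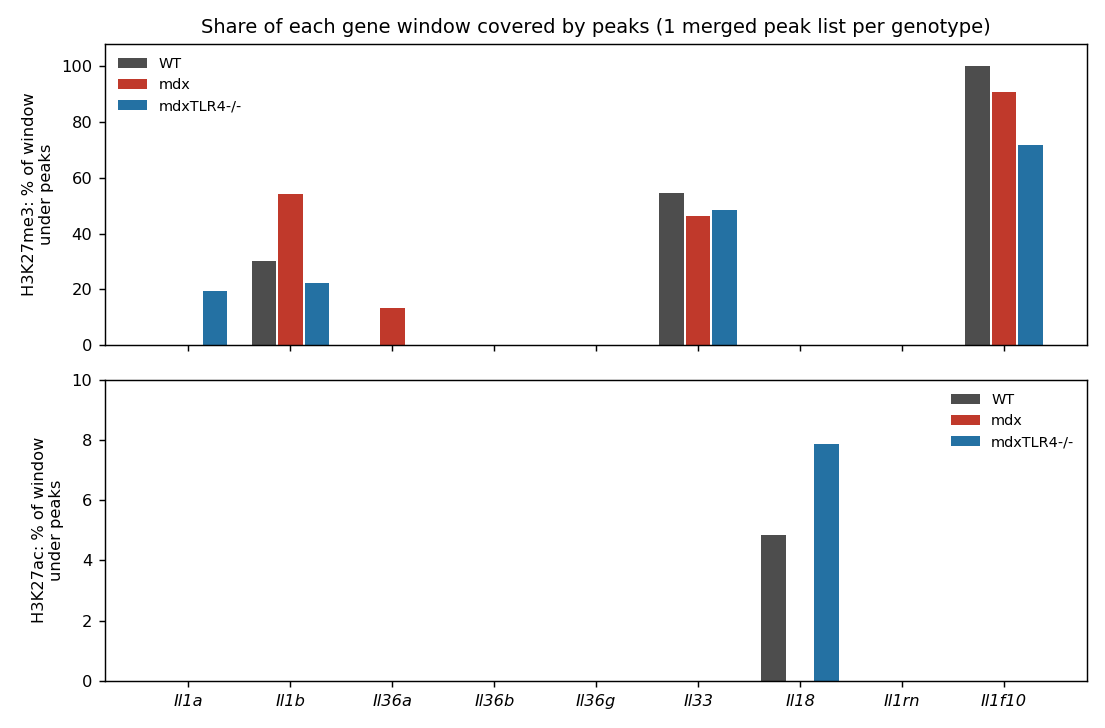
Share of each gene window under H3K27me3 peaks (top, percent) and H3K27ac peaks (bottom, percent, on a shorter axis) in WT, mdx and mdxTLR4-/-, with 1 bar per merged peak list and so no error bar. Il1f10, Il33 and Il1b have H3K27me3 in all 3 genotypes, Il18 alone has H3K27ac, and a missing bar means that no peak was called.

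Il1b encodes IL-1β, the secreted agonist that caspase-1 releases from its precursor. The gene lies at chr2:129364570-129371139 on the minus strand and has 7 exons. In WT its H3K27me3 peak, chr2:129367401-129371200, held 72 reads (56.3 to 90.7) and ran from 61 bp before the start through exon 5. In mdx the peak, chr2:129363601-129370400, held 154 reads (131 to 180) and began 739 bp inside the gene, running from exon 2 past the last exon. In mdxTLR4-/- the peak, chr2:129368001-129370800, held 48 reads (35.4 to 63.6), began 339 bp inside the gene and touched exons 2 to 4. The gene body was thus marked in all 3 genotypes and only the WT peak reached the start, by less than the 200-bp window in which SICER counts reads.

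H3K27me3 covered 30.2% of the Il1b window in the WT list, 54.1% in the mdx list and 22.3% in the mdxTLR4-/- list. A rise of 20 points or more from WT to mdx was shared by 1.81% of protein-coding genes, and a fall of 20 points or more from mdx to mdxTLR4-/- by 2.75%. The wider mdx peak was not denser relative to the rest of its list. Read density, in reads per kb of peak, was 18.9 in WT, 22.6 in mdx and 17.1 in mdxTLR4-/-, and the mdx to WT ratio was 1.20 (0.898 to 1.60). Across the 17103 regions that all 3 H3K27me3 lists shared, the median mdx to WT ratio was itself 1.22 (0.28 on the log2 scale), and relative to it the Il1b ratio was 0.982 (0.737 to 1.32). The mdxTLR4-/- to mdx ratio was 0.757 (0.536 to 1.05), or 0.959 relative to the shared median of 0.790. These densities stood low in their lists, at percentiles 12.6, 15.3 and 9.27. When the same number of peaks was taken from each list by density, the Il1b peak remained in WT only, the list that was shortest and so was kept whole. No list had H3K27ac within the window, and the nearest such peak lay 4262 bp upstream of the window in mdx (10 reads) and 65570 bp away in WT and mdxTLR4-/-. The antisense transcript Il1bos starts inside Il1b at position 129369897, and the reads carry no strand that could assign the mark to either.

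Il1a encodes IL-1α, an agonist that is active as a precursor and is released from damaged cells. It lies at chr2:129299610-129309972 on the minus strand. No list had a peak of either mark on its body. In mdxTLR4-/- an H3K27me3 peak of 61 reads (46.7 to 78.4), chr2:129311601-129314800, ran from -4828 to -1629 bp relative to the start, in no annotated gene, and covered 19.6% of the window. Such a peak, present in mdxTLR4-/- and not in mdx, was listed at 2.03% of protein-coding genes, and one in mdxTLR4-/- and not in WT at 3.53%. It had 19.1 reads per kb. Peaks of this length, 3200 bp, had a median of 70 reads in the WT list and 80 in the mdx list, with the fewest at 52 and 48, and the part of depth in the missing peaks was not tested. It was absent when the same number of peaks was taken from each list.

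All 3 lists had an H3K27me3 peak a little farther upstream of Il1a, outside the window by 1629 bp in WT (71 reads), 1629 bp in mdx (84 reads) and 2029 bp in mdxTLR4-/- (49 reads). At the other end, all 3 lists had an H3K27ac peak past the end of Il1a, outside the window by 610 bp in WT (11 reads), 810 bp in mdx (14 reads) and 610 bp in mdxTLR4-/- (7 reads). This peak lay over the start of the noncoding transcript Gm14023, at position 129297370, which runs opposite to Il1a and overlaps it. Neither peak counts towards Il1a by the window used here.

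The stretch from the Il1a window to the Il1b window, chr2:129298610-129376139, is 77530 bp long. H3K27me3 covered 20.6 kb of it in WT, in 3 peaks with 495 reads. In mdx it covered 25.4 kb in 5 peaks with 656 reads, and in mdxTLR4-/- 18.0 kb in 6 peaks with 396 reads. The bulk lay between the genes and recurred in the 3 genotypes: a WT peak of 14000 bp (352 reads) faced 2 mdx peaks (94 and 262 reads) and 2 mdxTLR4-/- peaks (139 and 53 reads). A peak 3′ of Il1b was listed in mdx (62 reads) and mdxTLR4-/- (46 reads) and not in WT. No H3K27ac peak lay in this interval in any genotype. The small nuclear RNA gene Gm25703 and the pseudogene Gm14039, which lie in the interval, had no peak over them.

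**Figure D2:**
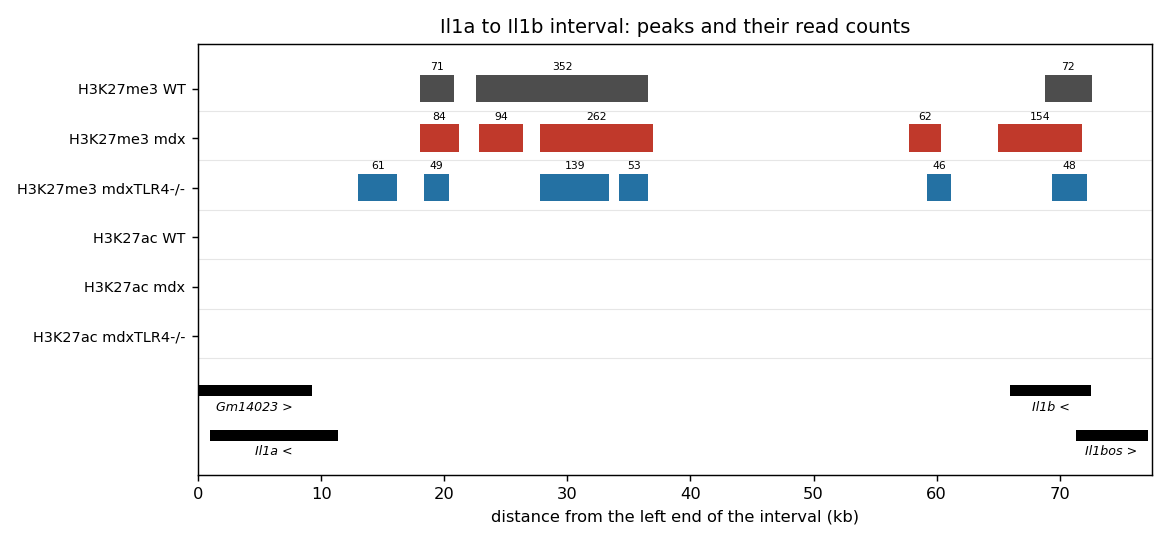
Map of the Il1a to Il1b interval, with distance in kb from its left end on the horizontal axis, 1 row per mark and genotype, peaks as boxes with their ChIP reads, and genes as black bars with the direction of transcription. H3K27me3 lies between the genes in all 3 genotypes and over Il1b, and reaches farthest over Il1b in mdx (154 reads).

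Il36a, Il36b and Il36g encode IL-36α, IL-36β and IL-36γ, agonists of a receptor shared among them. Il36a, at chr2:24215418-24225702 on the plus strand, had an H3K27me3 peak in mdx alone, chr2:24219401-24221600. It held 53 reads (39.7 to 69.3), lay 3983 to 6182 bp past the start and touched none of the 6 exons. Windows with a peak in mdx and not in WT made up 4.82% of protein-coding genes, and windows with a peak in mdx and not in mdxTLR4-/- 4.31%. Peaks of 2200 bp had a median of 57 reads in the WT list and 45 in the mdxTLR4-/- list, with the fewest at 43 and 29. The Il36a peak was absent when the same number of peaks was taken from each list and when the density threshold was raised. Il36b (chr2:24153161-24160519) and Il36g (chr2:24186476-24193568), both on the plus strand, had no peak of either mark, and their nearest H3K27me3 peaks lay between 24833 and 82233 bp outside the windows.

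Il1f10, which encodes IL-38, was the most completely covered gene of the family. It lies at chr2:24291196-24293820 on the plus strand with 4 exons, and in every genotype H3K27me3 lay over its start and all 4 exons, including the whole promoter stretch printed above. WT had a single peak of 246 reads (216 to 279), chr2:24285401-24296800. In mdx the same stretch was split between chr2:24285401-24287200 with 63 reads (48.4 to 80.6) and chr2:24288001-24296200 with 275 reads (244 to 310). In mdxTLR4-/- a narrower peak, chr2:24288601-24294800, held 152 reads (129 to 178). The body was covered completely in all 3 lists, and the genotypes differed in the 5 kb upstream, where cover was 100% for WT, 84% for mdx and 51.9% for mdxTLR4-/-.

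Window coverage of Il1f10 was accordingly 100%, 90.7% and 71.9% in WT, mdx and mdxTLR4-/-. A fall of 20 points or more from WT to mdxTLR4-/- was found in 3.3% of protein-coding genes. Read density went the other way between WT and mdx, from 21.6 to 33.8 reads per kb, and was 24.5 in mdxTLR4-/-. The mdx to WT density ratio was 1.57 (1.33 to 1.85), and relative to the shared regions it was 1.29 (1.09 to 1.52), an interval that stayed above 1. The mdxTLR4-/- to mdx ratio of 0.725 (0.595 to 0.881) was 0.919 (0.753 to 1.12) relative to the shared regions. The ratios compare densities over each list's own peaks, and the WT density is spread over 11400 bp against 10000 bp in mdx.

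Il1rn, at chr2:24336853-24351494 on the plus strand, had no peak of either mark in any list. None of its 4 annotated protein-coding starts, which fall into a pair at the gene start and a pair 8435 to 8457 bp farther on, was covered. The nearest H3K27me3 peak was the one over Il1f10, 35053 bp outside the window in WT, 35653 bp in mdx and 37053 bp in mdxTLR4-/-. The nearest H3K27ac peak lay 18853 bp upstream of the window in mdx (9 reads), 31107 bp downstream in WT (45 reads) and 33907 bp downstream in mdxTLR4-/- (15 reads). The promoter of Il1rn held 1 AP-1 match, 141 to 135 bases before the start.

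The interval that holds Il36b, Il36g, Il36a, Il36rn, Il1f10 and Il1rn, chr2:24148161-24352494, spans 204334 bp. H3K27me3 covered 19.2 kb of it in WT (2 peaks, 521 reads), 34.0 kb in mdx (9 peaks, 1012 reads) and 17.0 kb in mdxTLR4-/- (3 peaks, 402 reads). Genome-wide cover was 252 Mb for the WT list, 261 Mb for mdx and 224 Mb for mdxTLR4-/-. The added cover in mdx was thus larger, in proportion, in this interval than in the list as a whole. Other intervals of this size were not measured, so how common such a gain is was not tested. Il36rn, which encodes the IL-36 receptor antagonist and lies at chr2:24276954-24283426, had H3K27me3 over its start in WT (275 reads), mdx (242 reads) and mdxTLR4-/- (190 reads). The added mdx peaks lay between Il36a and Il36rn, at chr2:24227201-24231800 (97 reads), chr2:24245401-24246200 (30 reads), chr2:24256001-24258200 (53 reads), chr2:24259601-24264200 (89 reads) and chr2:24265201-24268800 (110 reads). Within this stretch mdxTLR4-/- had 1 peak, chr2:24256201-24260400 (60 reads), and WT had none. In the order listed, the added mdx peaks had 21.1, 37.5, 24.1, 19.35 and 30.6 reads per kb. The mdx list had a median density of 28.3 and a 1st percentile of 18. It also held the most peaks, 41780 against 28143 in WT and 36488 in mdxTLR4-/-, and the part of this in the added cover was not tested. Of the gene models between the cytokines, Gm13410 and Gm37703 were touched by no peak, while the pseudogene Gm13409 lay under 2 of the mdx peaks. The only H3K27ac peak of the interval was in mdx, chr2:24311401-24313000, with 9 reads (5.63 per kb), in no annotated gene between Il1f10 and the noncoding gene Gm13411.

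**Figure D3:**
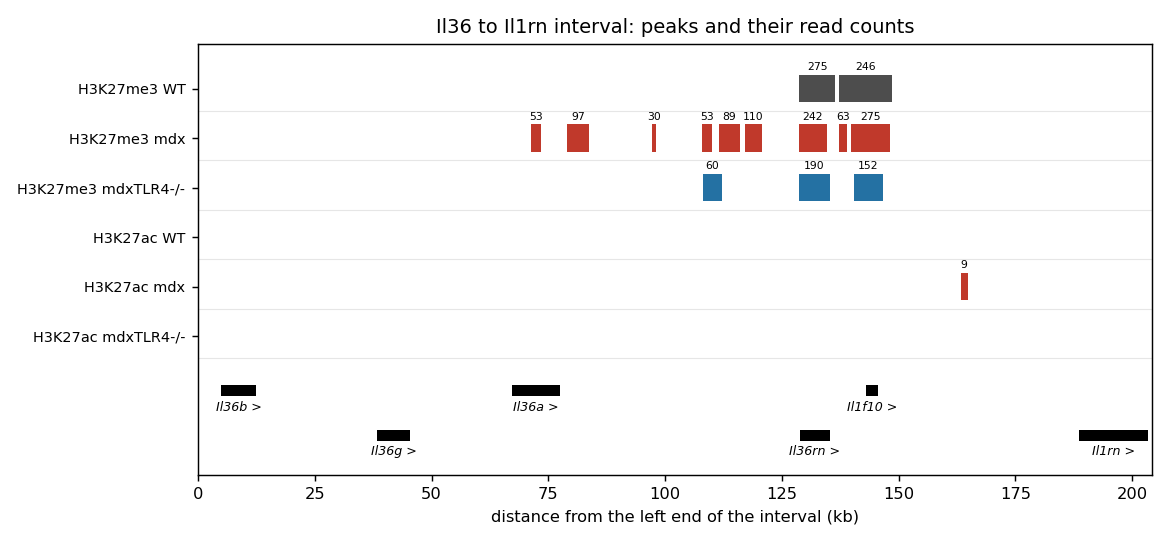
Map of the interval from Il36b to Il1rn, with distance in kb from its left end on the horizontal axis, 1 row per mark and genotype, peaks as boxes with their ChIP reads, and protein-coding genes as black bars. H3K27me3 over Il36rn and Il1f10 recurs in the 3 genotypes, mdx has 9 peaks against 2 in WT and 3 in mdxTLR4-/-, and the left end and Il1rn have none.

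Il33 encodes IL-33, which sits in the nucleus and acts on ST2 when cells are damaged. It lies at chr19:29925114-29960718 on the plus strand, and had the most H3K27me3 peaks of the family. WT had 5 peaks with 595 reads in all, mdx had 6 with 670 reads and mdxTLR4-/- had 6 with 450 reads. Cover of the window was alike, at 54.5% for WT, 46.4% for mdx and 48.6% for mdxTLR4-/-. The mark was concentrated at the upstream start. There, WT had a peak of 317 reads (283 to 354), chr19:29922401-29933000, and mdxTLR4-/- a peak of 250 reads (220 to 283), chr19:29920401-29931200. In mdx the corresponding stretch was listed as chr19:29922601-29925200 with 114 reads (94.0 to 137), which ended 86 bp past the start, and chr19:29926001-29934600 with 286 reads (254 to 321).

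Il33 has a second group of transcripts that begin inside the gene, and the annotated 8-exon transcript starts 20676 bp downstream of the first start, at position 29945790. That downstream start lay outside H3K27me3 in each genotype. The nearest peak before it ended 6190 bp away in WT, 7190 bp in mdx and 7590 bp in mdxTLR4-/-, and the nearest peak after it began 2211 bp away in WT and 4011 bp away in mdx and mdxTLR4-/-. A further start, at position 29951816, also lay outside H3K27me3 in each list. The nearest peak before that start ended only 16 bp away in WT and 816 bp away in mdx and mdxTLR4-/-. The peaks in the downstream part of the gene were smaller, with 58 to 74 reads in WT, 39 to 60 in mdx and 28 to 32 in mdxTLR4-/-. Both promoter stretches printed above held 4 CpG, and no list had H3K27ac at either start, the nearest such peak being 52314 bp or more outside the window.

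**Figure D4:**
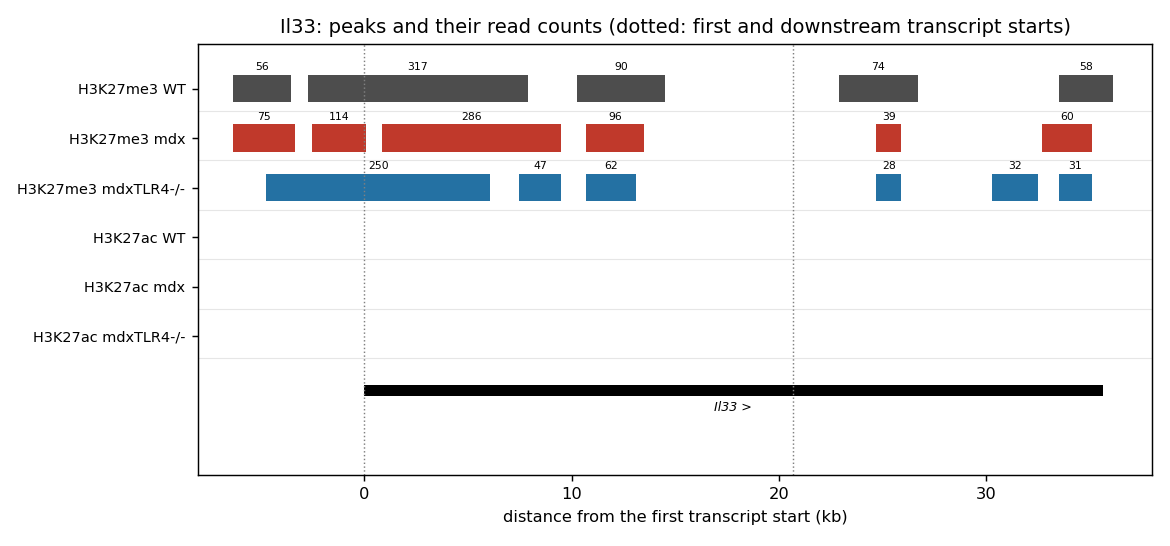
Map of Il33, with distance in kb from its first transcript start on the horizontal axis, 1 row per mark and genotype, peaks as boxes with their ChIP reads, and dotted lines at the first start and at the start 20676 bp downstream. The first start is under H3K27me3 in all 3 genotypes and the downstream start in none.

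Read density over the Il33 peaks was 24.8 per kb in WT, 32.5 in mdx and 22.3 in mdxTLR4-/-. The mdx to WT ratio of 1.31 (1.17 to 1.47) became 1.08 (0.963 to 1.21) relative to the regions shared by all lists, an interval that includes 1. The mdxTLR4-/- to mdx ratio of 0.685 (0.606 to 0.773) became 0.867 (0.768 to 0.979), an interval that stayed below 1. Scaled to the total reads in peaks of each list, that ratio was 0.949 (0.841 to 1.07), an interval that includes 1. The mdxTLR4-/- to WT ratio was 0.899 (0.793 to 1.02), and 0.937 (0.827 to 1.06) relative to the shared regions. Most of the density difference between mdx and the other lists at Il33 was thus present across the shared regions too.

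**Figure D5:**
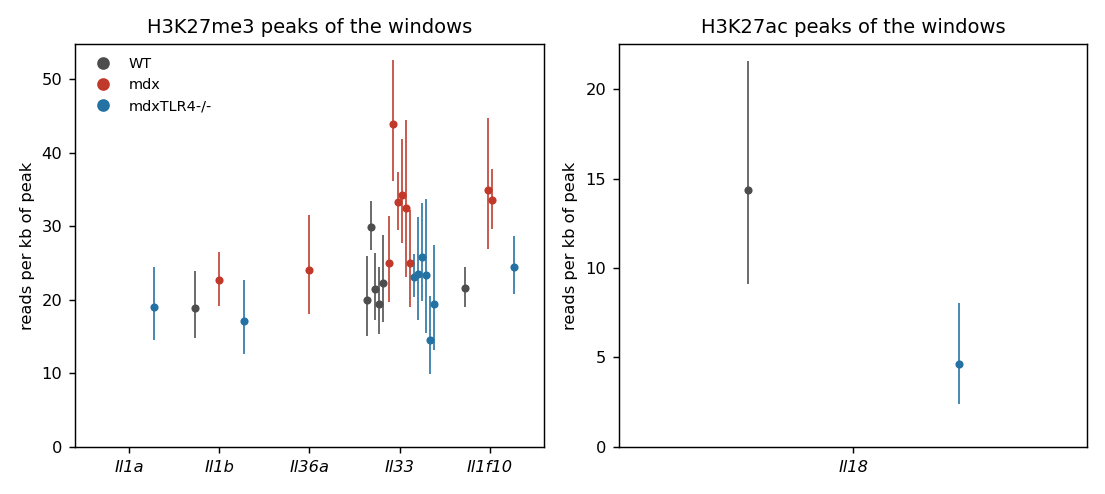
Read density in reads per kb of each H3K27me3 peak (left) and H3K27ac peak (right) in the gene windows, coloured by genotype, with 95% exact Poisson intervals that cover counting error only. Densities of mdx peaks lie between 22.6 and 43.8 for H3K27me3, and the Il18 H3K27ac peak is denser in WT (14.4) than in mdxTLR4-/- (4.62).

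Il18 encodes IL-18, an agonist that caspase-1 also releases and that drives interferon-γ production in lymphocytes. It lies at chr9:50554827-50581840 on the plus strand and was the only gene of the family with H3K27ac in its window. In WT the peak, chr9:50553801-50555400, held 23 reads (14.6 to 34.5) and covered the start and exon 1. In mdxTLR4-/- the peak, chr9:50553001-50555600, held 12 reads (6.20 to 21.0) over the same start. No peak was called in mdx, where 924 peaks of 1600 bp had a median of 10 reads and a minimum of 6, and the part of depth in this was not tested. Windows with an H3K27ac peak in WT and not in mdx made up 9.94% of protein-coding genes, and windows with a peak in mdxTLR4-/- and not in mdx 8.19%.

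The density of the Il18 peak was 14.4 reads per kb in WT and 4.62 in mdxTLR4-/-, a ratio of 0.321 (0.146 to 0.672), or 0.382 (0.173 to 0.800) relative to the median of the 6509 shared H3K27ac regions. Scaled to the total reads in peaks of each list, it was 0.522 (0.237 to 1.09), an interval that includes 1. The mdxTLR4-/- list came from 1 library and the WT list from 2. Both peaks covered the whole promoter stretch printed above, whose RefSeq start lies 127 bp before the GENCODE start. The other annotated starts of Il18, 10547 and 20446 bp farther on, had no peak in any list. No H3K27me3 peak lay within 38561 bp of the window in WT or within 80761 bp in mdx and mdxTLR4-/-.

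Mean H3K27me3 coverage of the 9 windows was 20.5% in WT, 22.7% in mdx and 18.0% in mdxTLR4-/-, beside 17.6%, 17.4% and 16.0% over all protein-coding genes. The median was 0 in each list, for the 9 genes as for all genes. From WT to mdx, coverage was higher at 2 genes (Il1b and Il36a), lower at 2 (Il1f10 and Il33) and equal at 5, all of them without the mark in both. Among all protein-coding genes 18.9% were higher and 19.4% lower. From mdx to mdxTLR4-/-, it was higher at 2 genes (Il1a and Il33), against 12.7%, and lower at 3 (Il1b, Il36a and Il1f10), against 25.9%. The mean difference from WT to mdx, 2.21 points, turned to -6.39 when the same number of peaks was taken from each list. That setting left the WT list, the shortest, uncut, so coverage could fall in mdx and not in WT. The mean difference from mdx to mdxTLR4-/- was -4.71 points and stayed negative under the 4 other settings run, between -1.77 and -7.38, beside a mean of -1.41 points over all protein-coding genes.

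Among the 9 genes that process these cytokines, H3K27ac was present at 9 in WT, 8 in mdx and 9 in mdxTLR4-/-, beside 39.9%, 34.5% and 36.5% of protein-coding genes. Nlrp3, the inflammasome sensor, had 136, 93 and 88 H3K27ac reads in WT, mdx and mdxTLR4-/-, or 22.7, 17.9 and 17.6 per kb of peak. Density was also lower across the 6509 shared H3K27ac regions, with a median ratio of 0.857 for mdx to WT. For mdxTLR4-/- to WT that median was 0.84. Casp1, the converting protease, had 74, 37 and 34 reads, or 13.7, 14.2 and 17.0 per kb, so its read total was lower and its density higher in the shorter lists. The gene without H3K27ac in mdx was Mefv, which encodes pyrin, with 7 reads in WT and 14 in mdxTLR4-/-. An H3K27ac peak in WT and not in mdx was listed at 9.94% of protein-coding genes. The only processing gene with H3K27me3 was Aim2, the sensor of cytosolic DNA, with 31.5% of its window under the mark for WT, 41.9% for mdx and 33.3% for mdxTLR4-/-. Aim2 also had a small H3K27ac peak in each list (14, 8 and 5 reads). The H3K27me3 count, 1 of 9 in each list, stands beside 38.4%, 41.3% and 39% of protein-coding genes.

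Of the 10 receptors and inhibitors, 5 had H3K27me3 in WT, 7 in mdx and 7 in mdxTLR4-/-, beside 38.4%, 41.3% and 39% of protein-coding genes. The 2 with a peak in mdx and not in WT, Il1r2 and Il1rl2, stand beside 4.82% of protein-coding genes. H3K27ac was present at 3, 3 and 2 of the 10, beside 39.9%, 34.5% and 36.5% of protein-coding genes. It lay over no start, beside 23.96%, 20.56% and 20.95% of protein-coding genes. Sigirr, a receptor that restrains IL-1 family signalling, was covered to 41.4%, 64.8% and 46.6% in WT, mdx and mdxTLR4-/-. Il1r2, the decoy receptor, had no H3K27me3 in WT and was covered to 8.05% in mdx and 6.65% in mdxTLR4-/-, and Il1rl2, the IL-36 receptor, to 3.25% and 2.43%. Il1rl2 also had an H3K27ac peak in mdx only (8 reads), beside 1012 of 21938 protein-coding genes with one in mdx and not in WT. Il1r1, the signalling receptor for IL-1, was covered to 17.5%, 15.9% and 13.8%. Il1rl1, which encodes ST2, was covered to 7.68%, 18.2% and 10.5%, and Il18r1, the IL-18 receptor, to 12.6%, 17.9% and 9.80%. Il1rl1 and Il18r1 are neighbours whose windows share peaks, so their values are not separate. Il1rap, the accessory chain, had H3K27ac in WT only (8 reads), beside 9.94% of protein-coding genes with a peak in WT and not in mdx.

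Of the 7 signalling genes, 6 had H3K27ac in WT, 4 in mdx and 6 in mdxTLR4-/-, beside 39.9%, 34.5% and 36.5% of protein-coding genes. The 2 with a peak in WT and not in mdx, Irak2 and Tollip, stand beside 9.94% of protein-coding genes. Irak2, a kinase below MyD88, had 39 H3K27ac reads in 4 peaks in WT, none in mdx and 7 reads in mdxTLR4-/-. H3K27me3 was present at Traf6, a ubiquitin ligase of the pathway, and at Tollip, an adaptor that dampens it, in all 3 lists. These 2 of 7 stand beside 38.4%, 41.3% and 39% of protein-coding genes. Tollip was covered to 34.8%, 35.6% and 35.4% and had H3K27ac in WT only (11 reads). Traf6 was covered to 14.3%, 13.6% and 6.74% and had H3K27ac in mdxTLR4-/- only (6 reads). An H3K27ac peak in mdxTLR4-/- and not in mdx was listed at 8.19% of protein-coding genes. Myd88 itself had H3K27ac in each list (13, 17 and 11 reads) and no H3K27me3.

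Other genes had cover like that of the 3 marked cytokines over the 6 lists, measured as the mean absolute difference in coverage and limited to genes at least 1 Mb away. For Il1b the nearest were Mepe (1.11 points), Gm17402 (1.33) and Inhbe (1.40), with 29 genes within 3 points. For Il1f10 they were Zfp641 (0.163 points), 5730596B20Rik (0.516) and Selenov (0.747), with 116 genes within 3 points. For Il33 they were Ror2 (0.719 points), Has3 (0.756) and Iqsec1 (0.914), with 193 genes within 3 points. The pattern of Il1b thus had fewer near matches than those of Il1f10 and Il33.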

How the data were processed

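Native ChIP sequencing of H3K27me3 and H3K27ac, with input libraries, was carried out by the authors on untreated BMDM. The deposited values were read counts: whole ChIP reads per peak, not scaled and not corrected for input. Per the labels and methods, reads were trimmed with cutadapt 1.15, aligned to mm10 with Bowtie2 2.3.4 and called with SICER 2.0 (window 200 bp, gap 600 bp, FDR below 0.01) after the libraries of a genotype were merged. Library depth is not given in the sources used here, and its part in which peaks were called was not tested. Peaks were assigned to GENCODE vM21 genes (5 kb upstream to 1 kb past the body, overlap of at least 1 bp) with Python 3.11.15, pandas 2.3.3 and scipy 1.17.1. Exact 95% Poisson intervals were given for read counts and exact binomial intervals for density ratios, beside the median ratio of regions shared by all 3 lists. The coverage and ratio steps were tested on simulated data.

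The genes and lists were chosen with earlier results of these data known. The genes named were all 9 cytokines, every receptor, processing or signalling gene with H3K27me3 or with an H3K27ac peak in some but not all genotypes (at most 8 a list), annotated genes within the chromosome 2 intervals, and the 3 most alike genes. Nlrp3, Casp1 and Myd88 were added as examples after their values were seen. Alternatives were a stricter density, equal peak numbers, an overlap of 400 bp, other windows and other scalings.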

Additional observations from a re-analysis of the deposited data

How the results depend on the processing

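No paired analysis was possible because the replicates of each genotype were merged before peaks were called, and for the same reason no replicate could be left out. With the stricter density threshold, the number of genes with H3K27me3 was 1 in WT, 2 in mdx and 2 in mdxTLR4-/-. Mean coverage was 2.83% in WT and 14.1% in mdx. The mean coverage difference was 11.3 points for mdx minus WT and -1.77 for mdxTLR4-/- minus mdx. For mdxTLR4-/- minus WT it was 9.54, of the opposite sign. Both positive differences came mostly from Il1f10, which dropped out of WT and kept 90.7% cover in mdx and 71.9% in mdxTLR4-/-. Il33 had 25.5% in WT, 36.5% in mdx and 39.4% in mdxTLR4-/-. With equal peak numbers, 2 genes had H3K27me3 in mdx and 2 in mdxTLR4-/-, and mean coverage in mdx was 14.1%. The differences were then -6.39 points (mdx minus WT, opposite sign), -1.77 and -8.16. The WT list was left uncut there, so coverage could fall only in the other lists and the sign change does not compare like with like. On gene bodies alone, the differences were 5.00 points for mdx minus WT and -7.38 for mdxTLR4-/- minus mdx. With 10 kb on both sides, H3K27ac was counted at 2 genes in WT, 3 in mdx and 2 in mdxTLR4-/-, since Il1a entered in all lists and Il1b and Il18 in mdx. Shares of all protein-coding genes were not computed under these other thresholds and windows. Scaled to the total reads in peaks, the mdxTLR4-/- to mdx ratio at Il1f10, which was also the median over Il1b, Il1f10 and Il33, turned from 0.725 to 1.005, and the median mdxTLR4-/- to WT ratio from 0.905 to 1.02. At Il18 the mdxTLR4-/- to WT ratio of H3K27ac density became 0.522 (0.237 to 1.09) under that scaling. The other 45 values for the family as a whole each stayed within 1.5 times its main value. Library depth is unknown here, which limits what the absence of a small peak (Il1a, Il36a, Il18) can show. The same limit holds for the small H3K27ac peaks of Mefv, Il1rap, Il1rl2, Tollip and Traf6. The causes were not tested.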
